A study of Mus musculus with 32 samples.

Results

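The 46 genes described here code for subunits of the mitochondrial respiratory chain that are made from nuclear DNA. They were taken by symbol from a list that was chosen with earlier results of these data known. All 46 were found among the 42524 genes of the spinal cord count table. Complex I had 24 members, complex II 4, complex III 6 and complex IV 12. Ndufa4, which carries a complex I name but belongs to cytochrome c oxidase, was counted with complex IV.

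RNA sequencing was done on spinal cord of 32 mice, with 4 mice in each of 8 groups. Genotype (WT or G93A), treatment (none or OKN-007) and age (95 or 155 days) were crossed. The sample labels write 90 days where the methods of the study write 95, and 95 is used here. G93A mice carried the human SOD1 G93A transgene in many copies under its own promoter on a C57BL/6J background. The WT mice were C57BL/6J littermates. The mice of the study were mostly female, and by its methods the experiments at the higher of its doses used females only. OKN-007 is a nitrone with antioxidant properties that was given in drinking water. The labels give no dose, and by the methods the cohorts killed at these ages had the higher of the study's doses, started early in life or, in a further cohort killed at 155 days, at onset. Which of these cohorts was sequenced at 155 days is not given in the sources used here. Each library was made from a 25 mg piece of cord by a protocol that selects polyadenylated RNA. Genotype could not be checked against the transgene, since the rows of the table are mouse genes.

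The respiratory chain passes electrons from nutrients to oxygen and pumps protons across the inner mitochondrial membrane, and ATP synthase uses that gradient to make ATP. Complex I takes electrons from NADH, complex II takes them from succinate and is also an enzyme of the tricarboxylic acid cycle, complex III hands them to cytochrome c, and complex IV reduces oxygen. Motor neurons have long axons and high energy demand, and damaged mitochondria are a known feature of mutant SOD1 disease.

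Libraries held between 19701722 and 30138257 counts, with a median of 26658755. Neuron markers were read in every mouse, and at 155 days the 10 of them summed to 7104 to 7736 CPM (counts scaled to library size) in untreated WT mice, as a check of the labelled tissue. The untreated WT mouse numbered 2 at 155 days stood apart from its group. It was the highest of the 4 in 41 of the 45 members other than Cox6a2, and it was also the library in which long transcripts were read least relative to short ones, with a slope of -0.0218 log2 units per doubling of transcript length against 0.0456 to 0.115 in the other WT mice of the group. Most results for members that rest on this mouse are therefore given with and without it. Counts of members without overlap, and results for lists of other genes, are given with all mice only. In the OKN-007 treated G93A group at 155 days, mouse 16 was the highest in 42 of 45 members.

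Promoter sequences are shown for 4 members to place the genes in the genome. Of the 46 members, 35 had an entry in the RefSeq promoter table (build GRCm38.p6), which spans 300 bases around each start. The other 11 were Cox6c, Ndufb9, Sdhc, Ndufs1, Cyc1, Uqcrc2, Uqcrb, Ndufa2, Cox4i1, Cox6a2 and Uqcrq. The 250 bases before the start are printed 5′ to 3′ on the strand of the gene for Ndufb2 and Cox5a, the members of complexes I and IV with the lowest log2 fold change in untreated G93A mice at 155 days, for Ndufb6, a lower member whose promoter held an ETS core, and for Cox6a1, whose muscle isoform Cox6a2 went the other way. Capitals mark the palindromic 10-base NRF1 core, found in the Cox6a1 sequence, or the ETS core CCGGAAG, on either strand. The windows are chr6:39592315-39592564 (plus strand), chr4:40279422-40279671 (minus strand), chr9:57520982-57521231 (plus strand) and chr5:115348959-115349208 (minus strand).
Ndufb2: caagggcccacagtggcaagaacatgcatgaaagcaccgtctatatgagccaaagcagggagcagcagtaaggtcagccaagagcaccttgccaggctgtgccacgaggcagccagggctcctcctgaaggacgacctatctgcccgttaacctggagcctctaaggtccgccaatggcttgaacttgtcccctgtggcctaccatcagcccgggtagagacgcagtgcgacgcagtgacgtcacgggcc
Ndufb6: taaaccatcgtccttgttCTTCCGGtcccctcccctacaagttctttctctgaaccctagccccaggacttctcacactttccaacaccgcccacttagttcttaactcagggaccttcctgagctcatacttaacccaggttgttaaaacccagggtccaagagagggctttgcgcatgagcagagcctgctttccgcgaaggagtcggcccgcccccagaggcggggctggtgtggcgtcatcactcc
Cox5a: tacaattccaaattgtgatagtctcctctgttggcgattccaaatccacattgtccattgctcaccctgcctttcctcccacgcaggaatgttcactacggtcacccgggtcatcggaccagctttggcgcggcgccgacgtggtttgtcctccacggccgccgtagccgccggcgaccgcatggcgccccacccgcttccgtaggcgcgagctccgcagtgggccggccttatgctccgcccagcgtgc
Cox6a1: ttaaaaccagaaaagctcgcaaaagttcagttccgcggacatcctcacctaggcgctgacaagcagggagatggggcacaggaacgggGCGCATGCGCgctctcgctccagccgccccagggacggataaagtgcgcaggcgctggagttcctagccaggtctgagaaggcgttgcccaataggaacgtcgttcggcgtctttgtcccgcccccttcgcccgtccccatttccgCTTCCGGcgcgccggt

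Within the 300 bases, the NRF1 core was found on either strand in 2 of 35 member promoters (5.7%) against 0.971% of all 32851 promoters in the table. The ETS core, which GABPA and related factors bind, was found in 9 of 35 (25.7%) against 8.86% of all. AAGATGGCG, a core bound by YY1, was found in 3 of 35 (8.6%) against 1.4% of all. TATAAA was found in 3 of 35 (8.6%) against 13.6% of all. Among the 13 members with a promoter that were lower in untreated G93A mice at 155 days, 1 held the ETS core, and among the other 22 it was held by 8. The last 3 letters of the ETS core are the first 3 of the YY1 core, so a stretch of sequence can hold both. A match describes letters and does not show that a factor binds.

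The members differed widely in level. Per kilobase of transcript, the median over members in untreated WT mice at 155 days was 249 CPM for complex IV, 140.0 for complex III, 90.1 for complex I and 83.1 for complex II. The most abundant per length were Cox4i1 at 644 ± 106 CPM per kb (SD, n = 4), Cox6c at 633 ± 93.8 and Cox5b at 470 ± 118, whose ranges over mice overlapped from each to the next. All of these code for nuclear-encoded subunits of cytochrome c oxidase. At the other end, Cox6a2, the heart and skeletal muscle form of subunit VIa, had 0 counts in all 4 of these mice.

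In untreated G93A mice at 155 days, 14 of the 46 members were lower than in WT mice, by fitted changes from Ndufb5, which fell by 14.9%, to Ndufb2, which fell by 26.3%. Fold changes, and the percents drawn from them, were fitted with libraries scaled over the mice and genes of the fit, whereas CPM were scaled over all 32 mice and all genes. The log2 ratio of the CPM means was therefore lower than the fitted value, by a median offset over 45 members of -0.04 in untreated and -0.07 in treated mice, and it was offset alike over all genes. From CPM means alone Ndufb5 was at -17.6% and Ndufb2 at -28.8%. The test was edgeR's quasi-likelihood test at adjusted p under 0.05, by which 1 member, Cox6a2, was higher, while 39.5% of all 18675 genes tested passed, 18.2% as lower and 21.3% as higher. The 14 were 10 of complex I, 1 of complex II and 3 of complex IV, and no member of complex III passed, although 3 of its 6 members did not overlap between the groups. The median log2 fold change was -0.18 over the members and 0.00 over all genes tested. Values of the 2 groups did not overlap for 20 members that were lower, where 17.7% of all genes tested were lower without overlap. Without WT mouse 2, the member median was -0.05, and 8 members (17.4%) passed as lower beside 3222 of 18990 genes, a share near that of all genes, and Cox6a2 passed as higher. Those 8, all among the 14, were Ndufb2, Ndufs1, Ndufv2, Ndufa10, Sdha, Cox7b, Cox5a and Ndufa4. Without G93A mouse 10, 7 members passed as lower beside 13.5% of all genes. In bulk tissue, fewer cells of a type and less RNA per cell cannot be told apart.

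**Figure D1:**
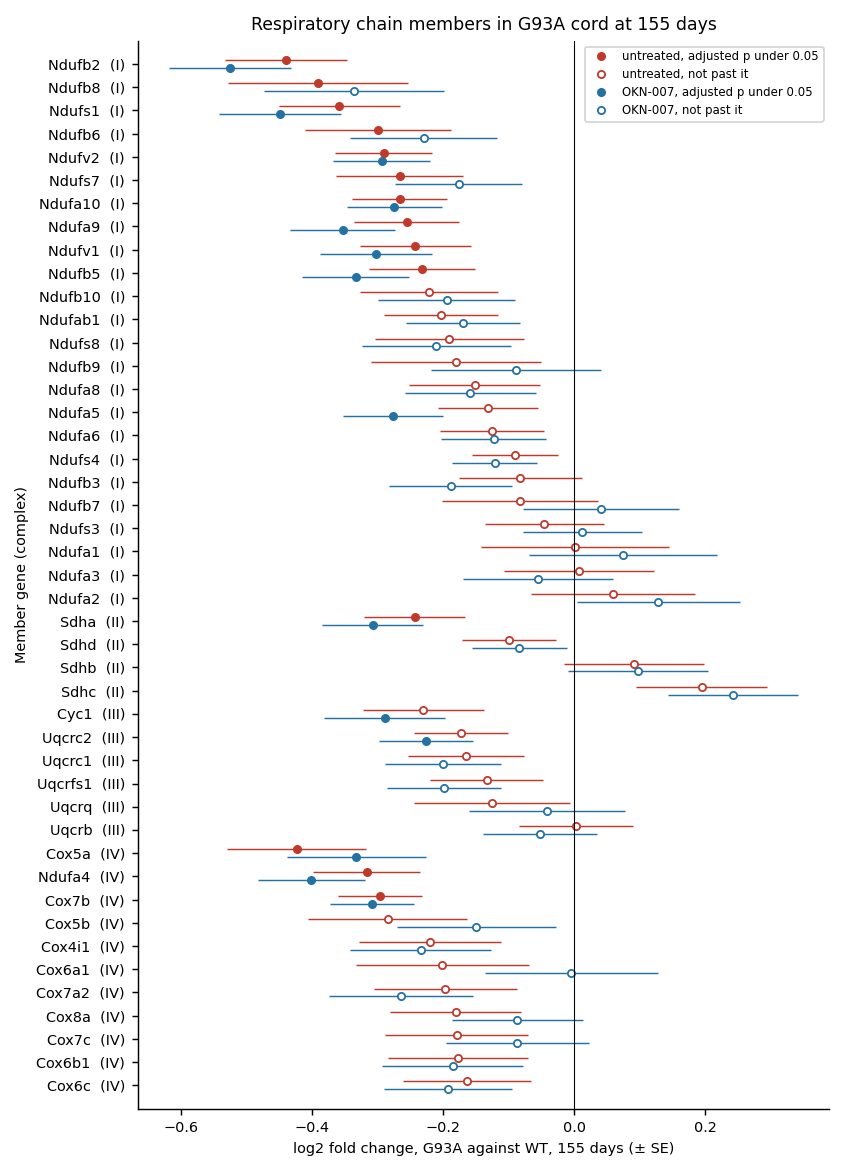
Log2 fold change ± SE of G93A against WT at 155 days (x axis) for the 45 members other than Cox6a2, by complex (y axis), in untreated mice (red) and OKN-007 treated mice (blue). Filled points passed adjusted p under 0.05. Most points lie left of 0, with Ndufb2 at -0.44 untreated and -0.53 treated, and Sdhc lies farthest to the right.

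Complex I, which held the most members, had 10 of 24 lower. The share lower over all genes tested, for this and the other complexes, was 18.2%. Complex I had a median log2 fold change of -0.20. Ndufb2, an accessory subunit of its membrane arm, stood at 25.9, 21.4, 25.8 and 26.7 CPM in the WT mice and at 18.7, 17.2, 15.3 and 19.8 CPM in the G93A mice. Every G93A mouse was below every WT mouse. Ndufb2 fell by 26.3% (log2 fold change -0.44 ± 0.09 SE, adjusted p = 0.000959). Ndufv2, the 24 kDa iron-sulfur subunit of the NADH-oxidising arm, read 293, 318, 289.6 and 267 CPM in WT mice and 237, 211, 244 and 232 CPM in G93A mice. These groups did not overlap either, and Ndufv2 fell by 18.2% (-0.29 ± 0.07, adjusted p = 0.00409). Ndufs1, which carries iron-sulfur clusters of the same arm, fell by 22.1%, and Ndufa10, Ndufa9, Ndufb5, Ndufb6, Ndufb8, Ndufs7 and Ndufv1 fell by 14.9% to 23.8%. Ndufv1 binds NADH and Ndufs7 carries the last cluster before ubiquinone. Ndufa2 had the highest log2 fold change of the complex, with 99.1, 148, 98.4 and 121 CPM in WT mice and 107, 119, 142 and 103 CPM in G93A mice. Its groups overlapped (0.06 ± 0.12, adjusted p = 0.743). Without WT mouse 2, Ndufa9, Ndufb5, Ndufb6, Ndufb8, Ndufs7 and Ndufv1 no longer passed, with log2 fold changes of -0.13 (Ndufb6) to -0.17 (Ndufa9) and adjusted p from 0.0761 to 0.241, and Ndufa2 was at 0.22 (adjusted p = 0.134).

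In complex II 1 of 4 members was lower. Sdha, the flavoprotein that oxidises succinate, stood at 688, 635, 668 and 616 CPM in WT mice and at 544, 484, 519 and 582 CPM in G93A mice. No G93A mouse reached the lowest WT mouse, and Sdha had a fitted change of -15.6% (-18.3% from CPM means, -0.24 ± 0.08, adjusted p = 0.0174). Sdhc, a membrane anchor, read 112, 137, 118 and 131 CPM in WT mice and 129, 135, 167 and 122 CPM in G93A mice. Its groups overlapped (0.19 ± 0.10, adjusted p = 0.131), and without WT mouse 2 its log2 fold change was 0.27 (adjusted p = 0.0525). Sdhb, the iron-sulfur subunit, and Sdhd, the other anchor, had log2 fold changes of 0.09 and -0.10 and did not pass.

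In complex III no member passed in untreated mice. Cyc1, cytochrome c1, read 117, 161, 125 and 129 CPM in WT mice and 111, 99.9, 117 and 111 CPM in G93A mice. The G93A mice all lay below the WT mice, by a narrow margin (-0.23 ± 0.09, adjusted p = 0.0543), and without WT mouse 2 its log2 fold change was -0.10 (adjusted p = 0.30). Uqcrc2, a core subunit, read 128, 139.7, 126 and 124 CPM in WT mice and 114, 104, 115 and 112 CPM in G93A mice. These did not overlap (-0.17 ± 0.07, adjusted p = 0.0631), and without WT mouse 2 the log2 fold change was -0.11 (adjusted p = 0.222). Uqcrb, the ubiquinone-binding subunit, had 196, 209, 188 and 239 CPM in WT mice and 176, 210.2, 221 and 201 CPM in G93A mice, with a log2 fold change of 0.00 ± 0.09.

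In complex IV, 3 of 12 members were lower. Cox7b, a small subunit with a role in assembly, stood at 222, 232, 221 and 227 CPM in WT mice and at 176, 173, 182 and 179.7 CPM in G93A mice. The groups were far apart relative to their spread, and Cox7b had a fitted change of -18.6% (-21.2% from CPM means, -0.30 ± 0.06, adjusted p = 0.00108). Cox5a, a subunit that binds thyroid hormone metabolites, read 93.3, 133, 94.7 and 98.9 CPM in WT mice and 81.9, 71.1, 73.9 and 76.5 CPM in G93A mice. All G93A mice lay below all WT mice, and the log2 fold change of -0.42 ± 0.11 (adjusted p = 0.00368) became -0.26 ± 0.08 (adjusted p = 0.0152) without WT mouse 2. Ndufa4 fell by 19.7% (-0.32 ± 0.08, adjusted p = 0.0044).

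Cox6a2 was the member that rose. It had 0 counts in each untreated WT mouse at 155 days and 28, 53, 57 and 40 counts in the G93A mice, which is a mean of 1.71 CPM. Against a floor of 3 counts in the smallest WT library of that group (0.129 CPM), it was at least 13.3-fold higher, and it passed the test (adjusted p = 6.9e-07). Cox6a1, the form found in most tissues, read 166, 282, 169 and 187 CPM in WT mice and 172, 172, 189 and 146 CPM in G93A mice. Those groups overlapped (-0.20 ± 0.13, adjusted p = 0.24), and without WT mouse 2 the log2 fold change was 0.03. Per transcript length (680 bases for Cox6a2 and 571 for Cox6a1), Cox6a2 stayed far below Cox6a1 in G93A mice too. Of 8 skeletal muscle markers tested, 1 was higher, Tnni2 (fast troponin I), from a mean of 0.357 to 3.77 CPM, and 1 was lower, Pygm. Acta1, the skeletal actin, had a mean of 0.447 CPM in WT and 0.346 CPM in G93A mice, and the 12 muscle markers summed to 139 to 153 CPM in WT and 101 to 121 CPM in G93A mice. Parvalbumin interneurons are also known to express Cox6a2. The 6 genes listed for them (Pvalb, Kcnc1, Kcnc2, Gad1, Gad2 and Slc32a1) include genes shared with other inhibitory neurons. All 6 were lower (median -0.56), beside 18.2% of all genes tested. The part of either cell type in the Cox6a2 result was not tested.

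**Figure D2:**
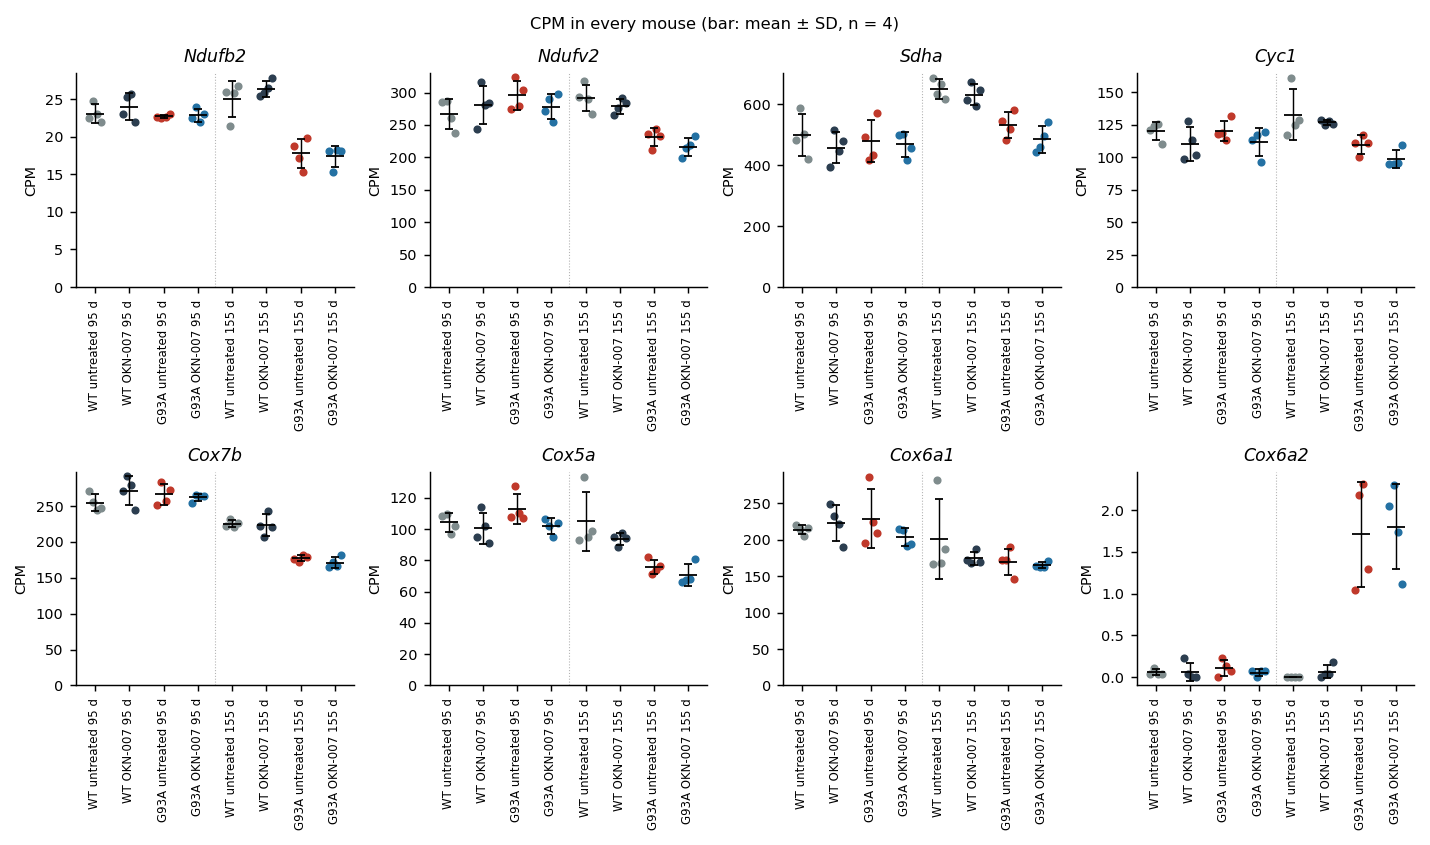
CPM (y axis) of 8 members in every mouse of the 8 groups (x axis), with mean ± SD bars (n = 4). At 155 days Ndufb2, Cox7b and Sdha of G93A mice lie below all WT mice, Cox6a1 overlaps between genotypes apart from a WT mouse at 282 CPM, and Cox6a2 is between 1.05 and 2.32 CPM in G93A mice.

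As means over the members, complex I stood at 6.53 ± 0.17 log2(CPM + 1) in untreated WT mice and at 6.31 ± 0.054 in untreated G93A mice at 155 days (SD, n = 4). The ranges did not overlap, and the difference was -0.22 with all WT mice and -0.14 without WT mouse 2. For complex III the difference was -0.18 with overlapping ranges, and for complex II it was -0.06 with overlapping ranges. The mean of complex IV differed by -0.13 over all 12 members and by -0.27 over the 11 without Cox6a2. Without WT mouse 2, the last value was -0.16 and the ranges still did not overlap, while complex III was at -0.10, complex II at -0.02 and complex IV over all 12 members at -0.03, each with overlapping ranges. At 95 days, complex I of OKN-007 treated G93A mice (6.52 to 6.61) lay just below that of untreated G93A mice (6.62 to 6.89), a difference of -0.14, or -0.08 without untreated G93A mouse 10, the highest. These means carry the scaling of the CPM and are given as descriptions, with no test.

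**Figure D3:**
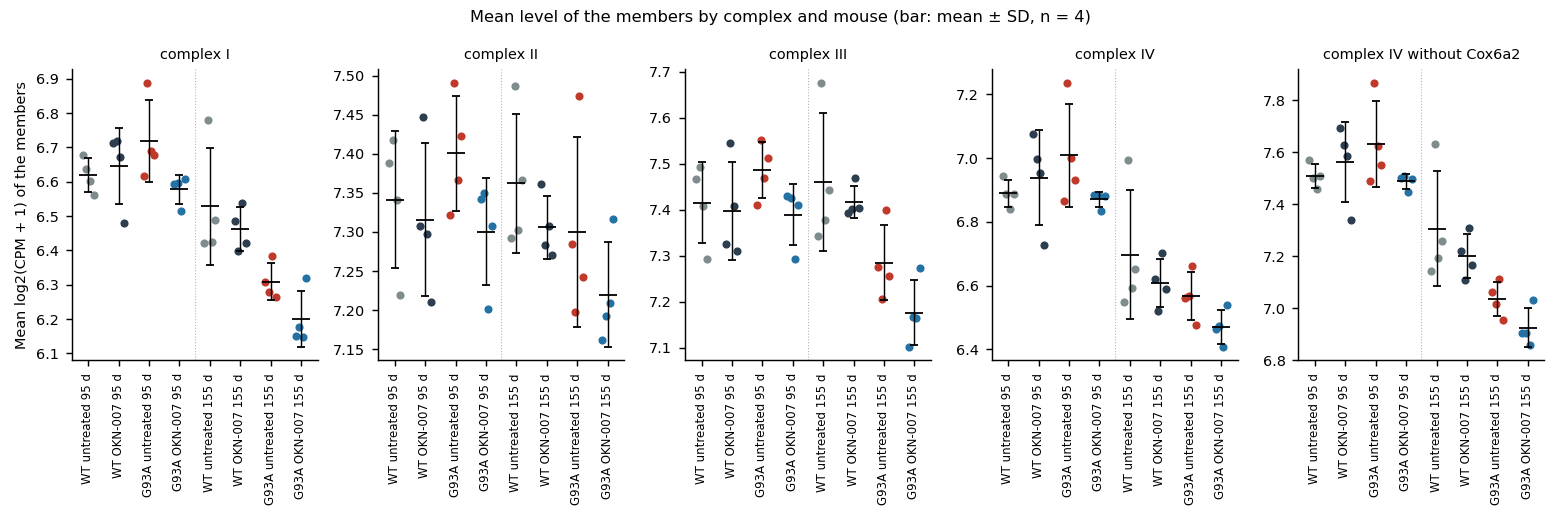
Mean log2(CPM + 1) over the members of each complex (y axis, separate scale in each panel) in every mouse of the 8 groups (x axis), with mean ± SD bars (n = 4). Complex I of untreated mice at 155 days has a mean of 6.53 in WT and 6.31 in G93A mice, and a single WT mouse lies above its group in each complex.

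OKN-007 treated G93A mice were also compared with treated WT mice at 155 days. Again 14 members were lower and Cox6a2 was higher, with 41.5% of all genes passing, 18.2% as lower and 23.3% as higher. The 2 lists of 14 shared 11 genes, 78.6% of each, from different mice fitted in the same model. Over all genes tested, 2647 were lower in both, 77.9% of the untreated and 77.8% of the treated list, so the share of the members is near that of all genes. Ndufb6, Ndufb8 and Ndufs7 passed in untreated mice, while Cyc1, Ndufa5 and Uqcrc2 passed in treated mice, and no test showed that the change of these genes differed with treatment. Ndufb2 read 25.4, 25.8, 26.5 and 27.8 CPM in treated WT mice and 18.02, 15.3, 18.2 and 18.1 CPM in treated G93A mice, where its fitted change was -30.5% (-0.53 ± 0.09, adjusted p = 0.000165). The treated genotypes did not overlap for this gene. Cox7b read 222, 207, 243 and 221 CPM in treated WT mice and 166, 172, 166 and 182 CPM in treated G93A mice, and its fitted change was -19.3%. Cyc1 read 129, 125, 128 and 126 CPM in treated WT mice and 94.8, 94.6, 95.5 and 109 CPM in treated G93A mice (-0.29 ± 0.09, adjusted p = 0.0168). All treated G93A mice lay below all treated WT mice in both genes. Sdha had a fitted change of -19.2%. From CPM means, these changes were -34.0% for Ndufb2, -23.3% for Cox7b and -23.3% for Sdha. Groups did not overlap for 31 members that were lower, beside 25.2% of all genes tested. Cox6a2 had 206 counts in treated G93A and 7 in treated WT mice, a ratio per total count of 29.0 (exact 95% interval 13.8 to 73.1, counting error only). Complex I differed by -0.26, complex III by -0.24 and complex IV without Cox6a2 by -0.28, none with overlapping ranges. Without untreated WT mouse 2, which enters through the shared estimate of spread, 23 members passed as lower beside 19.8% of all genes, and in a fit of the compared groups alone 28 did beside 23.1%.

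OKN-007 against untreated mice gave no member past the threshold in either genotype or at either age, and none of the genes tested passed in edgeR's quasi-likelihood test (0.0% called). Without the filter on low counts, 17 genes passed in G93A and 10 in WT mice at 155 days, and 8 and 14 at 95 days, and DESeq2 called 2 in WT mice at 155 days. None was a member, and the other alternatives tried called no member either. At 155 days in G93A mice, 2 members had an unadjusted p under 0.05, Ndufa9 (-0.19 ± 0.08) and Ndufa10 (-0.20 ± 0.07), both named after their values were seen, and 4.04% of all genes did. Without untreated WT mouse 2, which enters through the shared spread and scaling, 11 members did so beside 5.13% of all genes. The member median was -0.10, 44 of 46 values were below 0 beside 51.8% over all genes, and the smallest adjusted p was 0.9996. In WT mice at 155 days, 2 members did so, Ndufa10 (-0.19 ± 0.07) and Cox6a2 (7 counts against 0), beside 2.94% of all genes. The member median in WT mice was -0.09, and 0.03 without untreated WT mouse 2. The interaction of genotype and treatment at 155 days had a member median of -0.01 and 1 such member, Cox6a2, beside 2.34% of all genes, and without WT mouse 2 the median was -0.13. The median SE over members was 0.0978 log2 units in G93A mice. This is not a limit of detection, since larger values such as the -0.20 of Ndufa10 did not pass either. Changes of that size could therefore have been missed with 4 mice a group.

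At 95 days no member passed in any comparison of genotype or treatment. Cox6a2 did not pass the filter on low counts, with 6 and 10 counts in untreated WT and G93A mice and 6 in each treated group, so 45 members were tested. Untreated G93A against WT mice had a member median of 0.13, with 43 of 45 values above 0 where 49.9% of all genes were below 0, and 7 members with an unadjusted p under 0.05 beside 5.96% of all genes, while 0.0% passed with adjustment. In treated mice the median was -0.07 and 1 member, Ndufa5, had an unadjusted p under 0.05, beside 3.95% of all genes. OKN-007 against untreated G93A mice had 45 of 45 values below 0 beside 50.9% over all genes, a median of -0.16 and 11 members with an unadjusted p under 0.05 beside 5.56% of all genes, with a smallest adjusted p of 0.837. In WT mice the median was 0.04 and 0 members had an unadjusted p under 0.05, beside 4.07% of all genes. The interaction of genotype and treatment had a median of -0.21 and 8 such members beside 2.81% of all genes. These values share the untreated G93A mice, of which mouse 10 was the highest in 34 of 45 members. Without mouse 10, the median of untreated G93A against WT was 0.06 with 0 members under an unadjusted p of 0.05, beside 3.72% of all genes. That of OKN-007 in G93A mice was then -0.08 with 1 such member beside 2.5% of all genes, and that of the interaction was -0.12 with 0. Over both treatments together, G93A against WT had a median of 0.03 and 0 of 45 members with an unadjusted p under 0.05 beside 6.61% of all genes, and 0.0265% of all genes passed with adjustment.

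The G93A change in untreated mice differed between 155 and 95 days for 14 members, 13 more negative and Cox6a2 more positive at 155 days, beside 21.2% of all genes tested (8.34% more negative and 12.9% more positive). The member median of this difference was -0.32 and that of all genes was -0.01. Cox7b, which fell at 155 days, read 271, 256, 245 and 247 CPM in untreated WT mice and 252, 284, 258 and 272 CPM in untreated G93A mice at 95 days, and Ndufb2 read 22.5, 24.8, 23.0 and 21.9 CPM in WT and 22.7, 22.5, 22.6 and 23.0 CPM in G93A mice. Both genes overlapped between genotypes at 95 days. Ndufb6 had the lowest value (-0.62 ± 0.16, adjusted p = 0.00557), followed by Cox5a (-0.58 ± 0.14), Ndufa4 (-0.53 ± 0.12) and Ndufb8 (-0.52 ± 0.18). This order changed without WT mouse 2, with Ndufb2 lowest (-0.51), Ndufb6 at -0.46, Ndufa4 at -0.46 and Cox5a at -0.43, while Ndufb8 (-0.28, adjusted p = 0.125) did not pass. Cox4i1, Cox7a2, Ndufb10 and Ndufs8 were among the 13 without having passed at 155 days alone. Without WT mouse 2, or without G93A mouse 10 or WT mouse 3 or 4 at 95 days, 8 members passed, 7 as more negative, beside 16.9% to 20.5% of all genes called and 5.24% to 7.77% more negative. The member median was -0.21 without WT mouse 2.

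Between 95 and 155 days in untreated WT mice, members moved both ways and sorted by transcript length. The 6 higher at 155 days were Ndufs1, Ndufa10, Ndufa9, Sdha, Uqcrc2 and Uqcrc1, which have transcripts of 1445 to 2900 bases. The 7 lower members, Ndufa5, Ndufa1, Ndufb3, Ndufa6, Ndufa2, Uqcrb and Cox6c, had transcripts of 419 to 875 bases. Together they are 28.3% of the members beside 24.9% of all genes (15.3% higher and 9.61% lower). Sdha rose from 484, 588, 505 and 422 CPM at 95 days to 688, 635, 668 and 616 CPM at 155 days (0.39 ± 0.10, adjusted p = 0.00508). Of the 13 subunits made from mitochondrial DNA, 10 were lower at 155 days (median -0.56). Genes under 1000 bases had a median of -0.24 over the whole table and longer genes 0.03. With the length trend of each library removed, 10 members were higher and 2 lower beside 23.3% of all genes called and 10.6% lower. Without WT mouse 2 it was 3 higher and 22 lower beside 24.5% of all genes called, with a member median of -0.26. With other mice left out in turn, the number that passed went as low as 6, without WT mouse 1 at 95 days. The labels give no batch, and age cannot be told apart from any difference in library preparation between the 2 ages. In the G93A comparison at 155 days, members under 1000 bases had a median of -0.18 and longer members -0.23, and removing the length trend gave 33 lower members beside 19.2% of all genes.

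**Figure D4:**
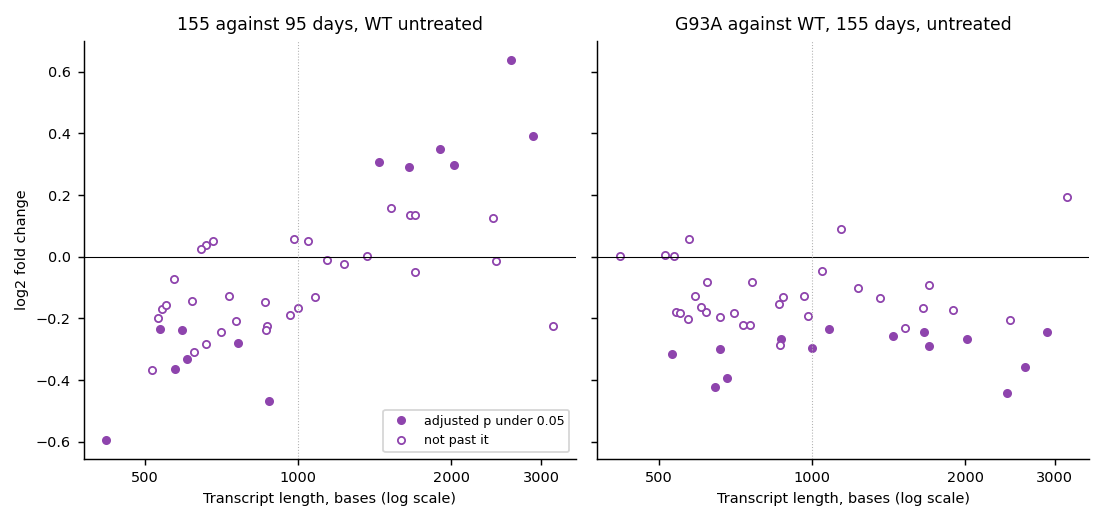
Log2 fold change (y axis) against transcript length in bases (x axis, log scale) for the 45 members other than Cox6a2, for 155 against 95 days in untreated WT mice (left) and G93A against WT in untreated mice at 155 days (right). Filled points passed adjusted p under 0.05. On the left the lower members are at 419 to 875 bases and the higher at 1445 to 2900 bases, while on the right lower members span 531 to 2900 bases.

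The rest of the pathway was examined with lists of related genes in untreated G93A against WT mice at 155 days, to be read against the 18.2% of all genes that were lower. All mice were used, and how far these lists rest on WT mouse 2 is not given. Of 13 complex I subunits that are not members, 1 was lower, Ndufc2 (-0.31). Cycs, the electron carrier cytochrome c, was lower (-0.27 ± 0.06) and the 3 other complex III subunits did not pass. ATP synthase had 5 of 17 subunits lower, led by Atp5b, the catalytic beta subunit (-0.43 ± 0.10), with a median of -0.19. Of 13 subunits made from mitochondrial DNA, 2 were lower, mt-Nd3 (-0.40) and mt-Nd1 (-0.36), and the mitochondrial genome took 4.16% to 5.33% of counts in WT and 3.77% to 4.38% in G93A mice. Assembly factors had 11 of 42 lower, with Cox11 the lowest (-0.54), and tricarboxylic acid cycle enzymes had 5 of 13 lower and Suclg2 higher (0.66). Of 11 genes of mitochondrial import and the outer membrane, 5 were lower, with Tomm70a at -0.48.

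Some tissue-restricted forms of complex IV subunits went the other way, as Cox6a2 did. Of 5 other complex IV isoforms tested, 3 were higher, beside 21.3% of all genes tested. The 3 were Cox6b2 (the testis form, 1.56 ± 0.20), Cox7a1 (the heart and muscle form, 1.12 ± 0.28) and Cox4i2 (the lung form, 0.57 ± 0.15). Their means in G93A mice were 10.3, 2.55 and 4.08 CPM. Among 12 regulators of mitochondrial biogenesis, 4 were lower, with the coactivator Ppargc1a at -0.45 ± 0.10, and 2 were higher, with Gabpa, a factor that binds the ETS core, at 0.31 ± 0.07.

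**Figure D5:**
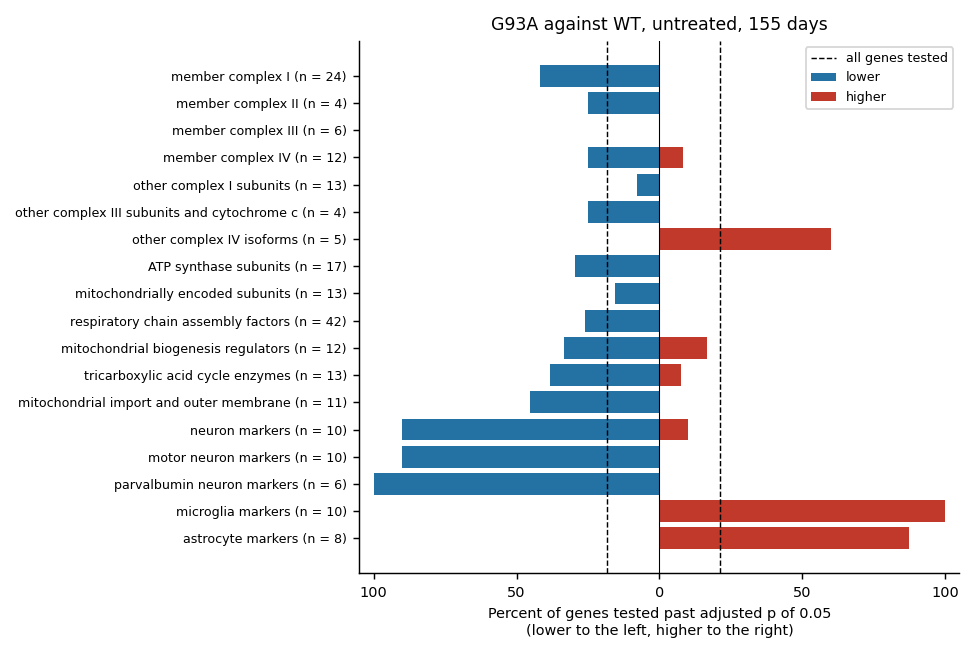
For each list (y axis, with the number of genes tested), the percent of its tested genes (x axis) that passed adjusted p under 0.05 as lower (blue, left) or higher (red, right) in untreated G93A against WT mice at 155 days. Dashed lines mark 18.2% lower and 21.3% higher over all genes tested. With all mice, complex I members reach 41.7% lower, complex III members 0.0%, and neuron lists 90.0% or more. Without WT mouse 2 (not drawn), 17.4% of all members were lower.

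Markers of the cord's cells moved over the same comparison. Of 10 neuron markers 9 were lower (median -0.50), and their summed level was 7104 to 7736 CPM in untreated WT and 4511 to 5625 CPM in untreated G93A mice at 155 days. Motor neuron markers had 9 of 10 lower (median -0.92), with Chodl at -2.60, and summed to 10470 to 14190 against 4660 to 6853 CPM. All 10 microglia markers were higher (median 2.35), from 353 to 438 CPM summed in WT to 1593 to 2965 CPM in G93A mice, and 7 of 8 astrocyte markers were higher. Of 8 oligodendrocyte markers 1 was higher, of 6 endothelial markers 0 passed, and of 4 Schwann cell markers 2 were higher. Liver markers, of which 0 of 5 passed, summed to 1.19 to 20.01 CPM in WT and 1.46 to 187 CPM in G93A mice. Of 10 caudal Hox genes, which mark the lower cord, 5 were lower (median -1.25), and their sum was 310 to 345 CPM in WT and 119 to 270.2 CPM in G93A mice. With the mean neuron marker level of each mouse as a covariate, which differs between the genotypes itself (9.03 in WT and 8.53 in G93A mice), 1 member passed, Cox6a2, beside 1.44% of all genes, and in treated mice 0 members did beside 1.08%. With the Hox level as a covariate, 4 members passed as lower and Cox6a2 as higher, beside 27.0% of all genes. The Hox level also did not overlap between the genotypes, at 4.05 to 4.65 in untreated WT and 2.05 to 3.84 in untreated G93A mice. Neither covariate can therefore be told apart from genotype in these fits. The part of these cells, of liver RNA and of cord level in the members' results was not tested.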

How the data were processed

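Spinal cord RNA of 32 mice was sequenced after TruSeq Stranded mRNA library preparation. The authors deposited a table of raw counts per gene, with Ensembl IDs and no coordinates. The methods of the study name STAR v2.4.0h, HTSeq v0.5.3p9 and GENCODE M10 on GRCm38, whereas the submitters' processing notes name STAR, featureCounts, GRCm39, mm39 and hg38, and 1321 IDs are not in GENCODE M21, so the build of the counts is not settled. The strand setting is not given in the sources used here. Subunit genes have processed pseudogenes, so reads could be shared between copies.

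IDs were paired with symbols and transcript lengths through GENCODE M21, in which 41203 (96.9%) matched. The length of a gene was the median over its principal transcripts. Groups were taken from the labels, and no column was left without a sample. Counts were filtered by filterByExpr, scaled by TMM and tested with edgeR 4.0.16 (quasi-likelihood, two-sided, Benjamini-Hochberg over all genes tested, R 4.3.3). The 16 mice of an age shared a fit, and comparisons of ages used all 32. CPM were computed from library sizes scaled by TMM over all 32 mice and all genes, so ratios of CPM differ slightly from fitted fold changes, and log2(CPM + 1) was averaged over the members of a complex. Floors used 3 counts and intervals were exact at 95%. The closest libraries of a group differed by a chi-square of 3.8 per gene (sampling noise gives about 1), so none was counted as a repeat. Values in every mouse are given, in each complex, for the 2 members with the smallest adjusted p and those with the highest and lowest log2 fold change in untreated G93A against WT mice at 155 days, plus Cox6a1 and Cox6a2. Genes of the other lists named are those with the highest and lowest value and a few more chosen after their values were seen. Members and lists were chosen with earlier results of these data known. The fit was tested on simulated data. Alternatives were DESeq2 1.42.0, other scalings, filters, thresholds, covariates and sample sets, a surrogate variable (sva 3.50.0), and each mouse left out in turn.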

Additional observations from a re-analysis of the deposited data

Results flagged for a closer look

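Single mice stood outside their group of 4 for 14 of 128 sets of values examined (named genes and complex means by group). Chance would give about 6.4 if the sets were independent. They are not, since named genes enter the complex means and a mouse can supply several sets, so no conclusion is drawn from the excess. At 155 days, Cox5a read 133.2 CPM in untreated WT mouse 2 against 98.9 CPM in the next mouse, and the mean of complex III was 7.47 log2(CPM + 1) in OKN-007 treated WT mouse 7 against 7.40. Treated G93A mouse 16 lay above its group at 155 days, with 109.2 CPM of Cyc1 (next 95.5), 170.8 CPM of Cox6a1 (next 164.1), 81.12 CPM of Cox5a (next 67.91) and a complex I mean of 6.32 (next 6.177). Ndufb2 was at 15.27 CPM in treated G93A mouse 14 at 155 days, below 18.02 in the next.

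At 95 days, treated G93A mouse 15 lay below its group in the means of complex I (6.515, next 6.593), complex III (7.292, next 7.411) and complex IV (6.834, next 6.882). Untreated G93A mouse 10 had 127.2 CPM of Cox5a, above 110.2 in the next. Cox6a2 was at 0.111 CPM in untreated WT mouse 2 (next 0.041), at 0.226 CPM in treated WT mouse 5 (next 0.038) and at 0.0 in treated G93A mouse 14 (next 0.068), all from 5 counts or fewer.

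The change of G93A against WT in untreated mice differed between 155 and 95 days for 14 members, by an interaction test over 32 mice. The share over all genes tested was 21.2%. On the log2 scale the difference was -0.457 for Ndufb2, -0.464 for Ndufb5, -0.618 for Ndufb6, -0.523 for Ndufb8, -0.384 for Ndufb10, -0.455 for Ndufs7, -0.448 for Ndufs8 and -0.473 for Ndufv2 in complex I. In complex IV it was -0.527 for Ndufa4, -0.456 for Cox4i1, -0.579 for Cox5a, -0.489 for Cox7a2 and -0.399 for Cox7b. Without untreated WT mouse 2 at 155 days, Ndufb8, Ndufb10, Ndufs7, Ndufs8, Cox4i1 and Cox7a2 did not pass edgeR's test (adjusted p from 0.1055 to 0.1702). Cox6a2 had a fitted difference of 7.694, which depends on the small count added to its zeros and is no measure of its size.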

How the results depend on the processing

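For the 9 comparisons with 0 members called, none of 267 alternatives called a member. In untreated G93A against WT mice at 155 days (15 members called), the count was 34 with the gene length trend removed, 5 with the caudal Hox score and 1 with the neuron score as a covariate, and 9 in a fit of the compared groups only. With each mouse left out in turn it ran from 8 to 17, with 9 without WT mouse 2 and 8 without G93A mouse 10. In treated mice (15 called), the count was 31, 8, 0 and 30 under the same changes and ran from 14 to 24, the last without untreated WT mouse 2, which enters that fit through the shared spread and scaling. The difference between ages (14 called) gave 26 at an adjusted p of 0.10, 23 with DESeq2, 24 with the length trend removed, 9 with the neuron score and 8 in the compared groups only, and ran from 8 to 21 with a mouse left out. It was 8 without WT mouse 3 or 4 or G93A mouse 10 at 95 days, or without WT mouse 2 at 155 days. The comparison of ages in WT mice (13 called) gave 2 with the neuron score and ran from 6 to 25, the ends being without WT mouse 1 at 95 days and without WT mouse 2 at 155 days. It was 8 without WT mouse 4 at 95 days or mouse 1 or 3 at 155 days, and 20 without G93A mouse 10 at 95 days. In the main fits, the share of all genes called was 39.5%, 41.5%, 21.2% and 24.9% for these comparisons in turn. That share also changed with the setting, as given above for several settings. A change in count is therefore not by itself a result about the members, and its cause was not tested.

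Signs turned with the neuron score as a covariate. That score did not overlap between the genotypes at 155 days, at 8.977 to 9.065 in untreated WT and 8.427 to 8.647 in untreated G93A mice. The values with this covariate therefore cannot be told apart from the genotype difference in the score. None of the members listed for 155 days passed with it. Log2 fold changes became 0.171 (Ndufa9), 0.313 (Ndufs1), 0.088 (Ndufv1), 0.035 (Ndufv2) and 0.311 (Sdha) in untreated mice at 155 days. In treated mice they became 0.024 (Cox5a), 0.003 (Ndufa10), 0.135 (Ndufa9), 0.324 (Ndufs1), 0.078 (Ndufv1), 0.079 (Ndufv2), 0.331 (Sdha) and 0.135 (Uqcrc2). The difference between ages became 0.369 for Sdha, and with the length trend removed Uqcrb was at 0.0 between ages in WT mice.

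Replicate numbers are shared between the 2 ages and not within an age. Same-numbered mice did not deviate together (r from -0.22 to 0.26, with 3 of 16 mice closest to their own number), so the numbers were not used as pairs. With a replicate block, 12 members were called for the difference between ages and 16 between ages in WT mice.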
